A study of Homo sapiens with 8 samples.

Results

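The genes described here encode the AP-1 transcription factors JUN, JUNB, JUND, FOS, FOSB, FOSL1, FOSL2 and ATF3 and the JNK branch kinases MAP2K7 and MAPK8. They were picked by symbol as one functional group and not by a cut on measured values, although earlier results of these data were known when they were picked, and each gene was read from its single-symbol probe set with the highest mean. Of the 10 genes, 9 were measured among 18404 genes on the array. MAP2K7 was not analysed here, since the array annotation used did not list it, so MAPK8 stood alone for the kinases. Total RNA of 2 human lung cancer lines, H1299 (NCI-H1299) and H2009 (NCI-H2009), was hybridised to 8 single-colour Affymetrix arrays. The groups were H1299 with hairpins against PTK7, H1299 with control hairpins, H2009 with hairpins against PTK7 and H2009 with control hairpins, with 2 arrays in each. The hairpins were PTK7-1, PTK7-2, GFP and LUC (luciferase), with 1 array per hairpin and line. All cells, controls included, had been infected with lentivirus for 2 days and kept in puromycin for 2 more, and RNA was taken on day 4. The 2 arrays of a group therefore carry different hairpins, and no label speaks of repeat cultures. In fits of group means the p-values below therefore rest on a spread between arrays that includes differences between hairpins. Where the hairpin is fitted as a block, hairpin differences shared by the lines are taken out of that spread. In fits of hairpin plus line the p-values rest on the spread left between the lines. Part of each spread may be technical.

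AP-1 is a family of dimeric transcription factors of the basic leucine zipper class. JUN proteins pair with themselves, with FOS proteins or with ATF proteins, and the dimers bind short DNA elements, the TPA response element (TRE) and the cyclic AMP response element (CRE). JNK, encoded by MAPK8 and its relatives, is switched on by the kinases MAP2K4 and MAP2K7 and phosphorylates JUN. FOS, FOSB, JUNB and ATF3 are immediate early genes whose mRNA climbs and decays quickly after serum or stress, while FOSL1 is a more lasting output of ERK signalling in tumour cells. PTK7 is a receptor-like pseudokinase that takes part in Wnt and planar polarity signalling, part of which runs through JNK. The comparison here asks whether the mRNAs of that branch and of its AP-1 effectors differ after PTK7 knockdown. Kinase activity and phosphorylation were not measured by these arrays.

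The promoter windows below are shown because several AP-1 genes are read by AP-1 and CREB/ATF proteins themselves. They come from RefSeq on GRCh38.p14 and run from 250 bases before to 50 bases after the annotated start. The table used held 10 windows for 9 of the 10 genes, with 2 for ATF3 and none for FOSL1. Both strands were searched for TGANTCA (TRE), TGACGTCA (CRE), TGACATCA (the variant described in the JUN promoter) and, by name, the CArG box bound by SRF. FOSL2 held the TRE, JUND the CRE, and JUN and the first ATF3 window the JUN-type element. Among all 35116 windows of this length, 7.71% held a TRE, 1.85% a CRE, 2.61% the JUN-type element and 1.29% a CArG box, and no window of these genes held a CArG box. Sites more than 250 bases before the start were not searched, so a CArG box further upstream would have been missed. The shorter TGACGT, which is part of every CRE and was added after the windows had been read, lay in 5 of the 10 windows, namely those of JUND, FOS, FOSB, FOSL2 and MAPK8, against 7.98% of all windows.
The first pair below is FOS and FOSB, whose levels moved together across arrays. The FOS window is chr14:75278578-75278877 (plus strand) and the FOSB window chr19:45467746-45468045 (plus strand), and capitals mark TGACGT, which begins at position -64 in FOS and -60 in FOSB, with the first transcribed base as 1.
FOS: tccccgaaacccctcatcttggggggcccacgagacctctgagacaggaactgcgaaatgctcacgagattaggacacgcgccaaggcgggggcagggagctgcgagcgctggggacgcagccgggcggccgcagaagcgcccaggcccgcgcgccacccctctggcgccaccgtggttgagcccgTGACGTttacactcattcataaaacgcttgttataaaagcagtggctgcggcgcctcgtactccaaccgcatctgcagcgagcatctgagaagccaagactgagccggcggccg
FOSB: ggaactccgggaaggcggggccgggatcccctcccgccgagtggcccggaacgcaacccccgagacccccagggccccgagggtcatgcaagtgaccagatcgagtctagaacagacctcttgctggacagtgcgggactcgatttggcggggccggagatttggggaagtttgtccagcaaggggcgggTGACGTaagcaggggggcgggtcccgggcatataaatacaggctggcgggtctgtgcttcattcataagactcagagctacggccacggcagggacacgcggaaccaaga
JUN, chr1:58783998-58784297 (minus strand), and ATF3, chr1:212565157-212565456 (plus strand), follow because both hold the JUN-type element, which is in capitals and begins at -67 and -123.
JUN: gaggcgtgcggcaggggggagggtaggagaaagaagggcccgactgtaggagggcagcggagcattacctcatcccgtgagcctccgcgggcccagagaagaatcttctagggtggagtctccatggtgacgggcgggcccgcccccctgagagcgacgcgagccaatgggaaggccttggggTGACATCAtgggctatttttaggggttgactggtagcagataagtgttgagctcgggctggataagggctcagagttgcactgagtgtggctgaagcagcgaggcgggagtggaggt
ATF3: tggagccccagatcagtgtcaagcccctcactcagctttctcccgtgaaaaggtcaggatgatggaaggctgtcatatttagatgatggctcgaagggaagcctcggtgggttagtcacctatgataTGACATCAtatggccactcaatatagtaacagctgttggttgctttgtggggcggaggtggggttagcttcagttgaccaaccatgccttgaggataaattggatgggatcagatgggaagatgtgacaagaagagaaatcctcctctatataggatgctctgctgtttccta
FOSL2, chr2:28392608-28392907 (plus strand), is shown as the gene with the widest gap between the lines, with TGACGT at -66 and the TRE at position 5 in capitals.
FOSL2: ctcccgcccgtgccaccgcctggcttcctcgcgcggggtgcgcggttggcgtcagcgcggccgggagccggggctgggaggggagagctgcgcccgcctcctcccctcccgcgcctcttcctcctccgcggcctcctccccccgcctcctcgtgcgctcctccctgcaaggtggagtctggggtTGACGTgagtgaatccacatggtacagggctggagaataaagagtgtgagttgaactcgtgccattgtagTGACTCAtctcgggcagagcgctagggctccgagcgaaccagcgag
These matches describe letters in the windows, and factor binding was not measured.

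PTK7 mRNA stood at 81.0% of the control signal in H1299 and 51.4% in H2009, and neither difference passed (limma adjusted p = 0.804 and 0.222). Pearson r between the 2 arrays of a group ran from 0.981 to 0.997 over 18404 genes. The epithelial genes EPCAM and CDH1 stood at 3.48 and 3.99 with PTK7 hairpins and 3.39 and 4.06 with control hairpins in H1299, against 11.2 to 11.4 in the H2009 groups, while KRT8 and KRT18 were at 9.32 or above in all groups. The defining markers PTPRC (leukocytes), DCN (fibroblasts) and PECAM1 (endothelium) were at 3.67 or below in every group. Other genes of those marker lists were brighter, namely the lysosomal gene CD68 at 7.99 to 10.3, COL1A1 at 6.16 to 6.91 and CLDN5 at 5.90 to 6.18 over the group means.

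With PTK7 hairpins against control hairpins none of the 9 genes passed the threshold, which was an adjusted p of 0.05 over all genes in limma. FOSL1 had the largest difference of the 9 by p and was 1.77-fold higher in H2009, while ATF3 was the only one of them with both PTK7 arrays below both control arrays in each line. FOS and FOSB were lower in H2009 and spread widely between the control arrays of H1299. In the difference averaged over the lines, 0 of 9 genes passed, as did 0% of all genes (149 genes, but none of the 9, with the hairpin as a block), and 2 of 9, FOSL1 and ATF3, had an unadjusted p under 0.05, against 9.88% of all genes. Of the 9 differences 4 were above 0 and 5 below, with a median of -0.04 beside 0.02 for all genes.

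**Figure D1:**
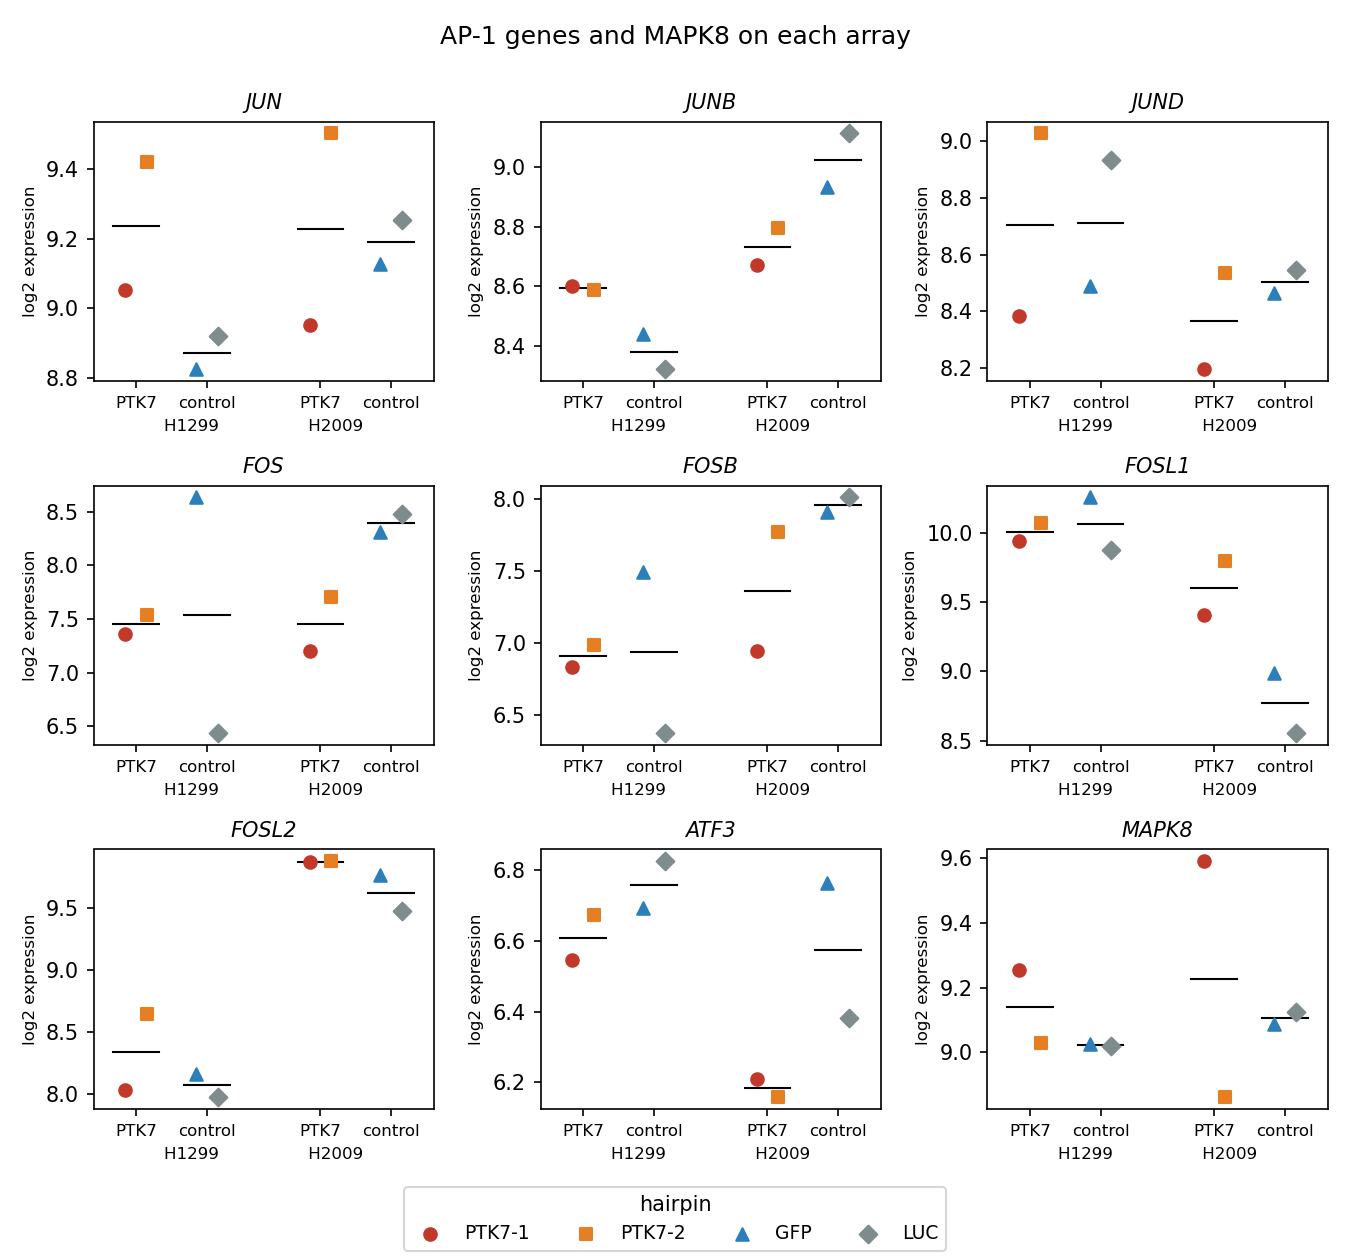
Log2 expression (vertical axes, a separate scale for each gene) of the 9 measured genes on each of the 8 arrays, with PTK7 hairpins left of control hairpins in each line; each point is 1 array, marked by hairpin, and bars are means of 2 arrays. FOS spans 6.43 to 8.63 between the control arrays of H1299, and FOSL1 in H2009 sits at 9.40 and 9.80 with PTK7 hairpins and at 8.99 and 8.55 with control hairpins.

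MAPK8, the gene of JNK1, had log2 values of 9.25 with PTK7-1 and 9.03 with PTK7-2 in H1299, against 9.03 with GFP and 9.02 with LUC. In H2009 it stood at 9.59 with PTK7-1 and 8.86 with PTK7-2, against 9.09 with GFP and 9.12 with LUC. Both control pairs lay close together, and in H2009 the PTK7 arrays lay on opposite sides of them. The averaged difference was 0.12 ± 0.16 (SE of the fit, as for all later values after ± unless marked SD), with a 95% interval from -0.26 to 0.50 and an adjusted p of 0.863. Without the PTK7-1 array of H2009 it was -0.06, so its direction rested on that array.

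JUN, the main nuclear substrate of JNK, stood at 9.05 with PTK7-1 and 9.42 with PTK7-2 in H1299, against 8.82 with GFP and 8.92 with LUC. Its H2009 values were 8.95 with PTK7-1 and 9.50 with PTK7-2, against 9.13 with GFP and 9.25 with LUC. In H1299 both PTK7 arrays were above both controls, and in H2009 PTK7-2 was above and PTK7-1 below them. The group means in H1299 were 9.24 ± 0.26 with PTK7 hairpins and 8.87 ± 0.07 with control hairpins (SD, n = 2 each), a difference of 0.36 ± 0.21. In H2009 the difference was 0.04 ± 0.21, and it was 0.31 without PTK7-1 and -0.24 without PTK7-2. The averaged difference of 0.20 ± 0.15 had a 95% interval from -0.15 to 0.55 and an adjusted p of 0.719.

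JUNB, an immediate early gene and a weaker activator than JUN, stood at 8.60 with PTK7-1 and 8.59 with PTK7-2 in H1299, against 8.44 with GFP and 8.32 with LUC. In H2009 it stood at 8.67 with PTK7-1 and 8.79 with PTK7-2, against 8.93 with GFP and 9.11 with LUC. The groups did not overlap in either line, with the PTK7 arrays above the controls in H1299 and below them in H2009. The differences were 0.21 ± 0.13 in H1299 and -0.29 ± 0.13 in H2009. The difference between them, 0.50 ± 0.18, did not pass (adjusted p = 0.915), and 0 of the 9 genes passed in this test of the lines, as did 0% of all genes (2 of 9, JUNB and FOSL1, and 5.17% of all genes at an unadjusted p under 0.05). The pattern of non-overlap upward in H1299 and downward in H2009 was found in 2.34% of all genes. JUND, the JUN protein least dependent on stimulation, ranged from 8.38 to 9.03 with PTK7 hairpins and from 8.49 to 8.93 with control hairpins in H1299, so the groups overlapped. In H2009 it ranged from 8.20 to 8.53 with PTK7 hairpins and from 8.47 to 8.54 with control hairpins, and its averaged difference was -0.07 ± 0.18.

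FOS, a partner of JUN in the classical AP-1 dimer, stood at 7.36 with PTK7-1 and 7.54 with PTK7-2 in H1299, against 8.63 with GFP and 6.43 with LUC. Its H2009 values were 7.20 with PTK7-1 and 7.71 with PTK7-2, against 8.31 with GFP and 8.48 with LUC. In H1299 the PTK7 arrays lay between the controls, and in H2009 they lay below both. The LUC minus GFP gap in H1299 was -2.20 in log2, and 7 of 18404 genes had a larger gap between these arrays. The PTK7 minus control difference in H1299 was -0.08 ± 0.61 with both controls, 1.02 when GFP was left out and -1.18 when LUC was left out. In H2009 it was -0.94 ± 0.61, a 1.92-fold lower level (adjusted p = 0.737), and it ran from -1.19 to -0.69 when arrays were left out in turn.

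FOSB, another partner of JUN, stood at 6.84 with PTK7-1 and 6.99 with PTK7-2 in H1299, against 7.50 with GFP and 6.38 with LUC. In H2009 it stood at 6.95 with PTK7-1 and 7.77 with PTK7-2, against 7.91 with GFP and 8.01 with LUC. The order of the arrays was that of FOS in H1299 and in H2009 alike. The differences were -0.02 ± 0.39 in H1299 and -0.60 ± 0.39 in H2009 (adjusted p = 1.00 and 0.734). The H2009 value was -0.19 without the PTK7-1 array and -1.01 without the PTK7-2 array, and the H1299 value was 0.54 without GFP and -0.58 without LUC. The H1299 gap between LUC and GFP was -1.12, with 102 genes beyond it. Over the 8 arrays, after each line's mean was subtracted, FOS and FOSB had a Pearson r of 0.94, which was the highest among the 9 genes. It was 0.92 over the 6 arrays without the H1299 controls, with the line means taken anew. The PTK7 arrays of H1299 then lie at equal distances on either side of their mean, so this value rests mainly on the H2009 arrays. Arrays share hairpins between the lines, so these points are not independent.

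FOSL1, which encodes FRA1, stood at 9.94 with PTK7-1 and 10.07 with PTK7-2 in H1299, against 10.25 with GFP and 9.87 with LUC. Its H2009 values were 9.40 with PTK7-1 and 9.80 with PTK7-2, against 8.99 with GFP and 8.55 with LUC. In H1299 the groups overlapped, and in H2009 both PTK7 arrays were above both controls. The H2009 means were 9.60 ± 0.28 with PTK7 hairpins and 8.77 ± 0.31 with control hairpins (SD, n = 2 each). That difference was 0.83 ± 0.22, with a 95% interval from 0.32 to 1.34 before any adjustment for the number of genes, and an adjusted p of 0.390. It ran from 0.61 to 1.05 when arrays were left out in turn. In H1299 the difference was -0.06 ± 0.22, and the H1299 minus H2009 difference of these, -0.88 ± 0.31, did not pass (adjusted p = 0.913).

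FOSL2, which encodes FRA2, stood at 8.03 with PTK7-1 and 8.64 with PTK7-2 in H1299, against 8.16 with GFP and 7.97 with LUC. In H2009 it stood at 9.87 with PTK7-1 and 9.88 with PTK7-2, against 9.77 with GFP and 9.47 with LUC. The groups overlapped in H1299, and in H2009 both PTK7 arrays were above both controls. The differences were 0.27 ± 0.22 in H1299 and 0.25 ± 0.22 in H2009, with an averaged adjusted p of 0.644. The H1299 value rested on 1 array, being -0.04 without PTK7-2 and 0.58 without PTK7-1, and the H2009 value was 0.11 without LUC and 0.40 without GFP.

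ATF3, a stress-induced partner of JUN that often represses, stood at 6.54 with PTK7-1 and 6.67 with PTK7-2 in H1299, against 6.69 with GFP and 6.83 with LUC. In H2009 it stood at 6.21 with PTK7-1 and 6.16 with PTK7-2, against 6.76 with GFP and 6.38 with LUC. The PTK7 arrays lay below both controls in each line, by a margin that in each line was smaller than the gap between its controls. Non-overlap downward in both lines was found in 4.53% of all genes. The averaged difference was -0.27 ± 0.11, a 1.21-fold lower level, with an unadjusted 95% interval from -0.53 to -0.01 and an adjusted p of 0.479. The differences were -0.15 ± 0.15 in H1299 and -0.39 ± 0.15 in H2009, and that between them, 0.24 ± 0.22, did not pass (adjusted p = 0.943). Leaving out the GFP control of H2009 gave -0.20 there and leaving out its LUC control -0.58, and in H1299 it ran from -0.22 to -0.08 with single arrays left out.

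Counted by line, 0 of 9 genes passed in H1299, with 0 at an unadjusted p under 0.05, against 0.00543% and 7.48% of all genes. In H2009 0 of 9 passed, with 2, FOSL1 and ATF3, at an unadjusted p under 0.05, against 0% and 7.98% of all genes. In H1299 both PTK7 arrays were above both controls for 3 genes, JUN, JUNB and MAPK8, a pattern found in 15.6% of all genes. For MAPK8 this was nearly a tie, with PTK7-2 at 9.0284 and GFP at 9.0274. Both PTK7 arrays were below both controls for 1 gene, ATF3, a pattern found in 16.1% of all genes. In H2009 they were above both for 2, FOSL1 and FOSL2, against 26.0% of all genes, and below both for 4, JUNB, FOS, FOSB and ATF3, against 18.9%. The averaged difference is built from the same arrays as those of the lines.

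**Figure D2:**
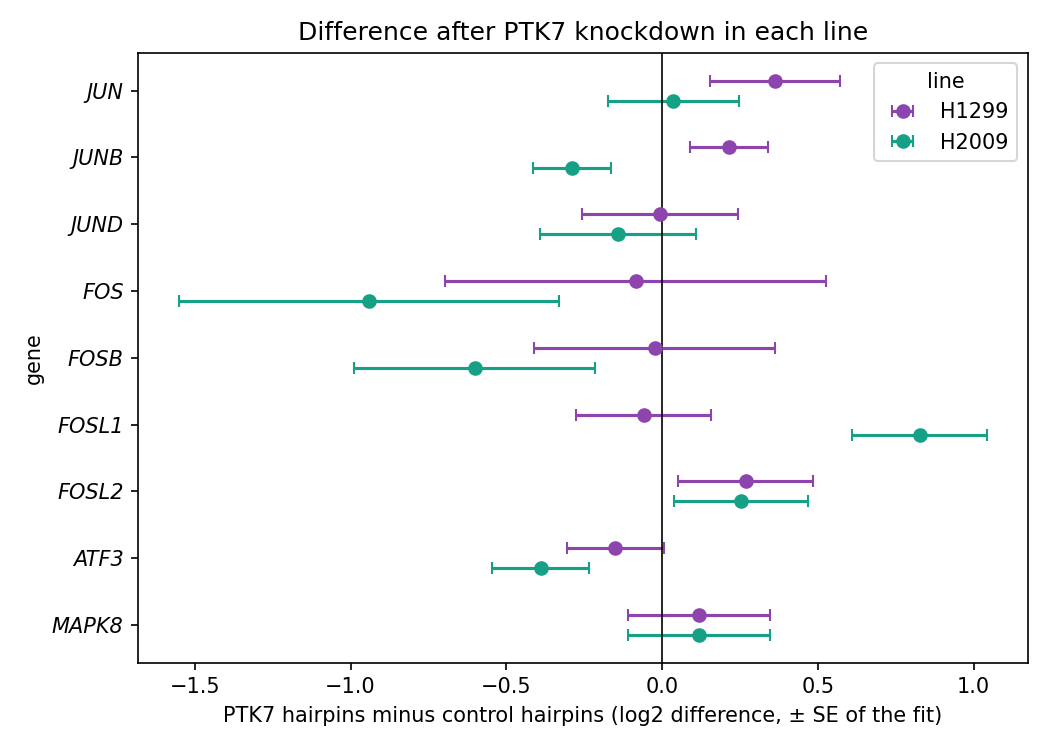
PTK7 minus control log2 difference (horizontal axis) of each of the 9 genes in H1299 (purple) and H2009 (green), with bars for the standard error of the fit. FOSL1 in H2009, at 0.83, lies furthest to the right and FOS in H2009, at -0.94, furthest to the left with a standard error of 0.61.

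Between the PTK7 hairpins JUN and JUND differed one way and MAPK8 the other in both lines, although none passed. JUN was lower with PTK7-1 than with PTK7-2 in both lines, with differences of -0.37 in H1299 and -0.55 in H2009, and so was JUND, with -0.64 and -0.34. MAPK8 was higher with PTK7-1 than with PTK7-2, with differences of 0.23 in H1299 and 0.73 in H2009. In the fit of hairpin plus line the PTK7-1 minus PTK7-2 difference was -0.46 ± 0.15 for JUN, -0.49 ± 0.15 for JUND and 0.48 ± 0.15 for MAPK8, with adjusted p-values of 0.157, 0.140 and 0.147. Thus 0 of 9 genes passed between the PTK7 hairpins, against 3.73% of all genes, and these 3 of 9 had an unadjusted p under 0.05, against 18.3%. In this fit the differences of the 8 AP-1 genes were below 0 and that of MAPK8 above. The median over the 9 genes was -0.31, beside -0.02 for all genes. JUNB and ATF3 lay closest to 0, at -0.06 ± 0.19 and -0.04 ± 0.17. By line, JUNB stood above 0 in H1299, at 0.01, and ATF3 in H2009, at 0.05. After each line's mean was subtracted, JUN and MAPK8 had a Pearson r of -0.56 over the 8 arrays. The r of MAPK8 was more negative with JUND, at -0.61, and with FOSB, at -0.59.

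**Figure D3:**
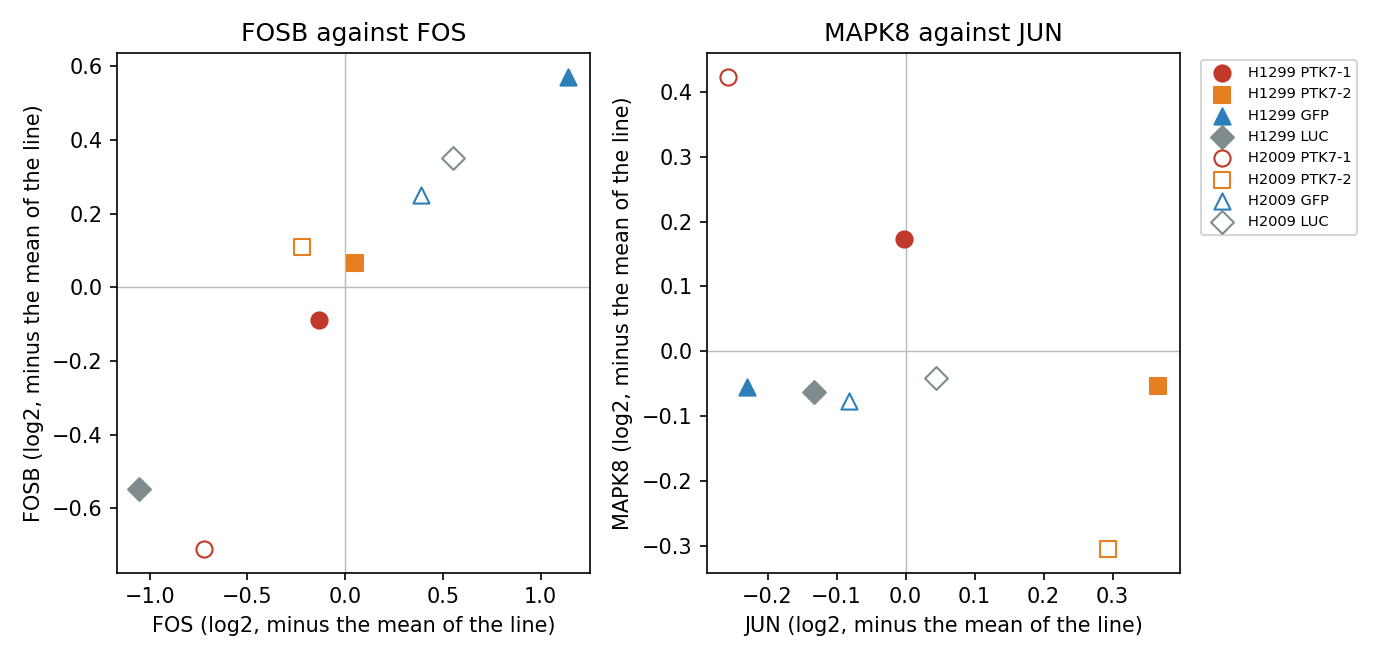
Log2 values minus the mean of the line on each of the 8 arrays, FOSB against FOS on the left and MAPK8 against JUN on the right; filled symbols are H1299, open symbols H2009, and shape and colour give the hairpin. FOS and FOSB lie along a rising line (r = 0.94), and in the right panel the PTK7-1 arrays have the 2 highest MAPK8 values and the PTK7-2 arrays the 2 highest JUN values.

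Set against the same 4 control arrays, each PTK7 hairpin gave 0 of 9 calls. With PTK7-1 JUN stood at -0.03 ± 0.13, JUND at -0.32 ± 0.13 and MAPK8 at 0.36 ± 0.13. With PTK7-2 JUN stood at 0.43 ± 0.13, FOSL2 at 0.42 ± 0.14, FOSL1 at 0.52 ± 0.23 and MAPK8 at -0.12 ± 0.13. The lowest adjusted p-values were 0.304 for MAPK8 with PTK7-1 and 0.150 for JUN with PTK7-2. Over all genes 1.23% passed with PTK7-1 and 2.15% with PTK7-2; at an unadjusted p under 0.05 there were 2 of 9 genes with PTK7-1 (JUND and MAPK8), against 12.9% of all genes, and 2 of 9 with PTK7-2 (JUN and FOSL2), against 16.8%. Without the LUC array of H1299, FOS passed with PTK7-1 at -1.22 (adjusted p = 0.0465), beside -0.68 ± 0.43 with all arrays. Between the LUC and GFP hairpins 0 of 9 genes passed and 0 had an unadjusted p under 0.05, beside 0% and 3.65% of all genes.

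Under control hairpins FOSL1 was 2.45-fold higher in H1299 than in H2009, while FOSL2 was 2.94-fold and JUNB 1.56-fold lower in H1299. These 3 of 9 genes passed, 1 higher and 2 lower, against 24.8% of all genes. FOSL1 averaged 10.06 ± 0.27 in H1299 and 8.77 ± 0.31 in H2009 (SD, n = 2 each), a difference of 1.29 ± 0.22 (adjusted p = 0.0052). FOSL2 averaged 8.07 ± 0.14 and 9.62 ± 0.21, a difference of -1.56 ± 0.22 (adjusted p = 0.0023), and JUNB 8.38 ± 0.08 and 9.02 ± 0.13, a difference of -0.64 ± 0.13 (adjusted p = 0.0095). FOSL1 and FOSL2 still passed whichever of the 8 arrays was omitted. JUNB did not pass without the LUC array of H1299 (adjusted p = 0.0618) or without that of H2009 (0.0919).

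**Figure D4:**
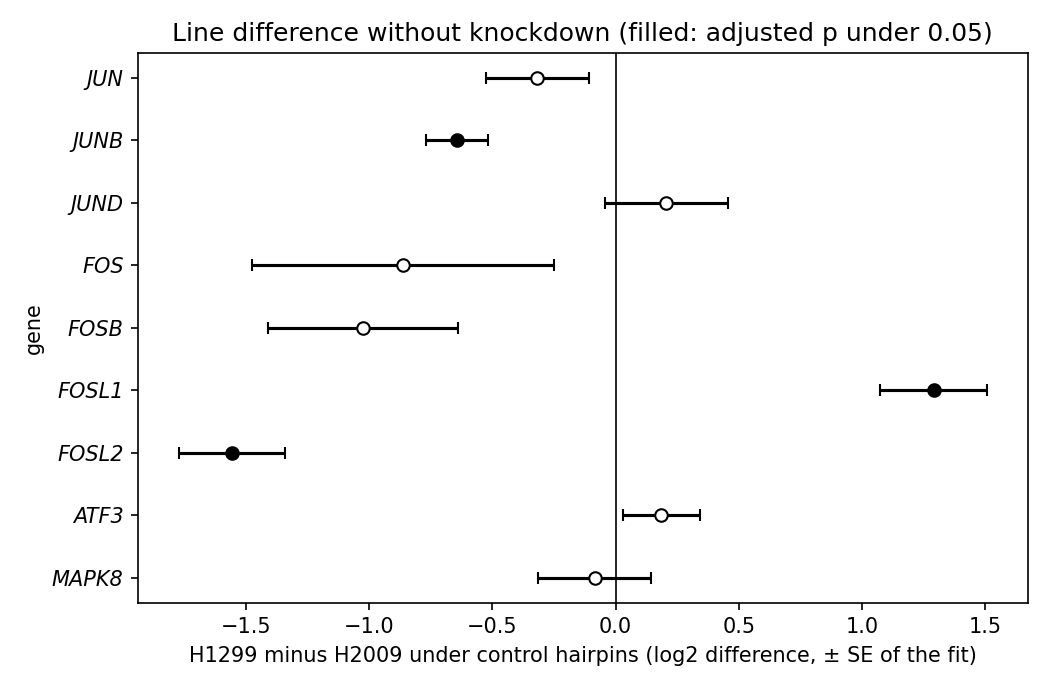
H1299 minus H2009 log2 difference under control hairpins (horizontal axis) for the 9 genes, with bars for the standard error of the fit and filled symbols for an adjusted p under 0.05. FOSL1, at 1.29, lies on the right, and FOSL2, at -1.56, and JUNB, at -0.64, on the left.

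FOS and FOSB, at -0.86 ± 0.61 and -1.02 ± 0.39 between the lines, did not pass (adjusted p = 0.385 and 0.104). Both calls turned on the H1299 controls: without the GFP array FOS stood at -1.96 (adjusted p = 0.0052) and FOSB at -1.59 (0.0276), and without the LUC array FOS stood at 0.24. With the hairpin as a block FOSB passed too (adjusted p = 0.0412), which made 4 of 9 genes against 31.3% of all genes. JUN at -0.32 ± 0.21, JUND at 0.21 ± 0.25, ATF3 at 0.19 ± 0.15 and MAPK8 at -0.08 ± 0.23 did not pass between the lines. With PTK7 hairpins the FOSL1 means were 10.01 ± 0.09 in H1299 and 9.60 ± 0.28 in H2009 (SD, n = 2 each). The FOSL1 gap between the lines was thus smaller with PTK7 hairpins than with controls by the -0.88 given above, which did not pass.

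Other genes of the JNK cascade gave no call in the averaged difference or in either line. Of 20 measured upstream and sister kinases, 12 were above 0 and 8 below in the averaged difference, with a median of 0.02, equal to that of all genes, and 3 had an unadjusted p under 0.05, against 9.88% of all genes (the background for the counts of this kind in the other lists too). MAP3K4, an upstream kinase of the JNK and p38 branches, stood at -0.48 ± 0.09 (adjusted p = 0.190), TAOK1 at -0.36 ± 0.15 and MAP3K9 at 0.32 ± 0.11. Of 9 scaffolds and MAP3K4 activators 7 were above 0, with a median of 0.16. GADD45A, a stress-induced activator of MAP3K4, stood at 0.71 ± 0.17, the JNK scaffold SH3RF1 at 0.56 ± 0.17, and GADD45B at 0.52 ± 0.14, which combined 1.21 in H1299 with -0.18 in H2009. Of 11 MAP kinase phosphatases 6 were above 0, and the ERK phosphatases DUSP5 and DUSP6 stood at 0.46 ± 0.15 and 0.58 ± 0.22. DUSP10, which acts on JNK and p38, stood at -0.47 ± 0.23.

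Among 17 measured AP-1 and ATF relatives, 11 were above 0, with a median of 0.15, and 6 had an unadjusted p under 0.05, beside the 9.88% of all genes. DDIT3, induced in the integrated stress response, stood at 0.79 ± 0.18, BATF2 at 0.45 ± 0.09 and ATF7, a relative of ATF2, at -0.60 ± 0.19. Of 20 measured AP-1 target genes, 15 were above 0 in the averaged difference, with a median of 0.25, and 6 had an unadjusted p under 0.05, beside the 9.88% of all genes. The list also lay to one side between the control hairpins, where 17 of 20 were lower with LUC than with GFP, with a median of -0.19 beside 0.01 for all genes. In H2009 17 of 20 were above 0, with a median of 0.32 beside 0.03 for all genes, and in H1299 14 of 20, with a median of 0.06 beside -0.0026 for all genes. The growth factor genes EREG and HBEGF stood at 0.68 ± 0.12 and 1.07 ± 0.29, and PLAU, the urokinase gene, at 0.69 ± 0.18. HBEGF stood at 1.81 in H2009 and 0.34 in H1299. Its GFP and LUC controls lay apart, at 8.04 and 7.08 in H2009 and at 9.86 and 8.94 in H1299. EREG stood at 1.04 in H2009 and 0.31 in H1299, where its arrays read 4.34 to 4.72, below the median gene level of 6.325. Of 19 immediate early genes 13 were above 0, with a median of 0.04, and 0 had an unadjusted p under 0.05. By line, 16 were above 0 in H1299, with a median of 0.21, and 8 in H2009, with a median of -0.06. In limma 3 of 19 had an unadjusted p under 0.05 in each line, against 7.48% of all genes in H1299 and 7.98% in H2009. In the difference between the lines' effects it was 5 of 19, against 5.17%. In the averaged difference the lowest p-values in limma belonged to EGR3 at 0.22 ± 0.11, IER5 at 0.19 ± 0.11 and IER3 at 0.19 ± 0.11. EGR3 was dim, at 4.31 to 4.86 on all arrays. Of 5 genes for SRF and its cofactors, which drive the FOS promoter, 1 was above 0; MRTFB and SRF stood at -0.28 ± 0.15 and -0.28 ± 0.21 and ELK4 at -0.22 ± 0.15. In none of these lists did a gene pass in limma in the averaged difference, in H1299 or in H2009, and the lowest adjusted p among the named genes was 0.182, for EREG. With the hairpin as a block, 1 of the 101 list genes, HBEGF, passed in the averaged difference, against 149 of all 18404 genes.

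The hairpins taken singly gave calls in these lists, against 1.23% of all genes with PTK7-1 and 2.15% with PTK7-2. By list, 1 of 17 AP-1 and ATF relatives passed with PTK7-1. With PTK7-2, 3 of 20 AP-1 target genes, 1 of 9 scaffolds and MAP3K4 activators and 1 of 5 SRF and cofactor genes passed. Between the PTK7 hairpins 2 of 20 kinases and 1 of 5 SRF and cofactor genes passed, against 3.73% of all genes. In each comparison the other lists gave no call. The genes below are named because they passed, whether or not the rule for named genes held them. With PTK7-1 against the 4 controls ATF7 fell by 0.91 ± 0.14 in log2 (adjusted p = 0.0312). With PTK7-2 GADD45A rose by 0.88 ± 0.14 (adjusted p = 0.0247). The AP-1 target genes CCND1 (cyclin D1), PLAU and PLAUR (the urokinase receptor) rose by 1.39 ± 0.20, 0.94 ± 0.16 and 0.70 ± 0.12 with PTK7-2, with adjusted p-values of 0.0185, 0.0317 and 0.0346. SRF fell by 0.65 ± 0.12 with PTK7-2 (adjusted p = 0.0445). Between the PTK7 hairpins the upstream kinases MAP3K13 and MAP3K11, at -1.29 ± 0.19 and -0.87 ± 0.16, were lower with PTK7-1 than with PTK7-2, and SRF was higher, at 0.74 ± 0.14 (adjusted p = 0.0168, 0.0303 and 0.0346). These calls rested on 1 array per hairpin and line. A left-out array also makes the estimate of the spread less certain, so a lost call does not show dependence on that array. Of the 8 fits that each left out 1 array, MAP3K13 passed in 5, CCND1 in 4, GADD45A in 3, ATF7 and PLAU in 2, MAP3K11 in 1, and PLAUR and SRF (in both comparisons) in 0.

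Between the lines under control hairpins the calls in these lists are read against the 24.8% of all genes that passed. Of the 20 kinases 2 passed as higher and 5 as lower in H1299, with MAP3K12 at 1.72, TNIK at -2.01 and MAP3K5 at -1.46 as the largest. Of the 11 phosphatases 2 were higher and 2 lower, with DUSP16 at 1.52, DUSP4 at -2.48 and DUSP10 at -1.75, and of the 9 scaffolds MAPK8IP2 alone passed, at 0.58. Of the 17 AP-1 and ATF relatives 5 were higher and 2 lower, with CREB5 at 1.64, DDIT3 at 1.01 and BATF3 at 1.00. Of the 20 AP-1 target genes 5 were higher and 4 lower in H1299, with TGFB1 at 2.54, EREG at -5.03 and IL6 at -3.23. In H1299 with GFP and LUC, EREG read 4.46 and 4.34, IL6 3.85 and 4.04, and DUSP4 4.58 and 4.53. These are below the median gene level of 6.325, so the sizes of these 3 differences are uncertain. Of the 19 immediate early genes 2 were higher, CCN2 at 2.05 and CCN1 at 1.38, and 2 lower, with KLF4 at -1.70. Of the 5 genes for SRF and its cofactors 2 were higher, ELK3 at 1.33 and ELK1 at 0.45, and 1 lower, MRTFB at -1.42.

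The genes whose line-centred pattern over the 8 arrays was most like that of JUN, among 9194 with above-median spread, were FAM110A, LRRN4 and ACADVL, with Pearson r of 0.987, 0.986 and 0.985. For FOS they were SPATA20, BBS2 and LRP1 (0.982, 0.977 and 0.966). For FOSL1 they were TNFAIP2, GDPD5 and TMCC3 (0.974, 0.970 and 0.966). For ATF3 they were ZNF300P1, STAC and ALOX12P2 (0.925, 0.903 and 0.899). Each is the top of many genes compared over few arrays, so these values describe likeness only.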

How the data were processed

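Each deposited value is the log2 signal of a probe set from RMA, and R 2.14.0 is named in the submitters' processing notes; the genome build was not given in the sources used here. The table held 32321 probe sets, of which 19158 carried 1 gene symbol in the array annotation, 1388 carried more and 11775 had no entry. Among the first, 19128 were matched by gene ID to current symbols. Where a gene had more than 1 (637 genes), its brightest probe set stood for it, giving 18404 genes. Array medians lay between 5.31 and 5.41, no arrays were identical, and the number of arrays limits the precision. RMA is known to understate differences of dim genes.

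Tests used limma 3.58.1 under R 4.3.3 (lmFit, eBayes, Benjamini-Hochberg over all genes, threshold 0.05), fitting group means to the 8 arrays together, or with hairpin plus line for comparisons between hairpins. The code was tested on simulated data. Intervals are 95% and unadjusted. Both lines received the same hairpins, per the labels, and deviations from the group means correlated between lines (r = 0.230 for control and 0.407 for PTK7 hairpins); each fit of group means was therefore repeated with a hairpin block. The genes and lists were chosen with earlier results of these data known, although no measured value entered the rule for the genes. Named from each list were up to 3 genes by unadjusted p in the averaged difference and, between the lines, up to 3 by size among those that passed; the likeness search named 3 genes each for JUN, FOS, FOSL1 and ATF3. The alternatives tried were median centring, quantile normalization, a filter dropping the dimmest 40% of genes, averaged probe sets, every probe set, trended and robust priors, an additive fit, fits of 1 line, the hairpin block, and leaving out each array. Figures were drawn with matplotlib 3.10.9.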

Additional observations from a re-analysis of the deposited data

Results flagged for a closer look

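JUNB had both PTK7 arrays above both control arrays in H1299 and both below them in H2009. The H1299 minus H2009 difference of its PTK7 effects was 0.50 ± 0.18, which did not pass in limma (adjusted p = 0.915). No other of the 9 genes lay on opposite sides in the lines, and groups of 2 arrays were too small for a test of outlying samples.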

How the results depend on the processing

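None of the 9 genes passed in the averaged difference, in either line, in the difference between the lines' effects, between hairpins of a kind, or with PTK7-2 against controls, under any alternative run. Between the lines under control hairpins, 3 genes passed, and the count ran from 2 to 5 with single arrays left out. It was 5 without the GFP array of H1299, where FOS and FOSB were added. It was 4 with the hairpin as a block, where FOSB was added; the block changed no other call among the 9 genes. For PTK7-1 against controls the count ran from 0 to 1, the 1 being FOS without the LUC array of H1299. Over all contrasts and alternatives, 1287 recomputed differences of single genes held 64 changes of sign, 59 of them with an array left out, and no gene that passed changed sign. Among differences that passed in neither fit, 95 moved by at least their standard error with an array left out, 25 of them with a change of sign. Under the other settings 0 did. Differences that passed in either fit were not in this count. One of them was FOS between the lines, at -0.86 with all arrays and -1.96 without the GFP array of H1299. The cause of the moves was not tested. With an array left out the lone array of its group is assumed to vary like the others. Over all genes, calls between the lines were 4566 (2196 to 5767 under the alternatives), between PTK7 hairpins 686 (0 to 943), with PTK7-1 226 (0 to 373), with PTK7-2 395 (18 to 545), in the averaged difference 0 (0 to 149), in H1299 1 (0 to 8) and in the test of the lines' effects 0 (0 to 3). FOS and FOSB in H1299 are limited by their control arrays, and MAP2K7 was not analysed here.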
